A study of Rattus norvegicus with 16 samples.

Results

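A set of 42 probe sets, each paired with 1 gene, had a higher mean signal at 3 h than at 1 h after drinking. This held in the rat gustatory cortex whether the rats had drunk saccharin or water. The members are probe sets that the array annotation pairs with exactly 1 gene and whose mean log2 signal was higher by at least 0.2 at 3 h than at 1 h in both tastes, and they number 42 of 15209 such probe sets (42 of 14497 genes). Of 46 probe sets that met this threshold, 4 were set aside by symbol (Pde7b, Pde10a, Kcnj2 and Inhba). Each member was therefore chosen by the values that its change over time is computed from, so the members' changes over time are a description and carry no test.

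Expression was measured on 16 Affymetrix RaGene 1.1 ST v1 arrays, each hybridised with tissue of 1 male Wistar Hola rat (2 months old by the labels, 10 to 16 weeks by the methods). The 4 groups of 4 arrays were saccharin 3 h, saccharin 1 h, water 3 h and water 1 h. All rats were water restricted and trained to take their water in short daily sessions, then drank either 0.1% saccharin, a taste they had not met before, or water, the familiar one. No group without drinking enters these comparisons, and the rats of the 3 h arrays carry the labels C365 to C372 and those of the 1 h arrays C373 to C380, so a batch that ran with these numbers and time cannot be told apart.

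The gustatory cortex is the part of the insula that receives taste input and takes part in taste memory. After a stimulus, neurons first transcribe immediate early genes, mostly transcription factors, and then a slower set of secreted factors, receptors, channels and enzymes that act on synapses and cell surfaces. The members include secreted proteins, receptors, adhesion proteins, chromatin proteins and enzymes. Of 24 measured genes known to respond late to neuronal activity, 1 is a member, Vgf. Whether the other members belong to that slower set was not tested. In bulk tissue, more cells of a type and more RNA per cell cannot be told apart.

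All values below are log2 signals as deposited, and each difference is 3 h minus 1 h or saccharin minus water on the log2 scale, whereas the study tabulates time as 1 h against 3 h. The members were of ordinary brightness, with a median level of 6.004 against 6.152 over all probe sets tested, and 11 of 42 averaged under 5, where array signals are dim. Their changes were small. The median was 0.28 after saccharin and 0.27 after water, against 0.00 and 0.00 over all probe sets, and 39 of 42 members had both changes under 0.5. The change was the larger one after saccharin for 20 members and after water for 22. The highest of the 16 arrays was a 3 h array for 41 members, which the rule favours, and fell on C368 for 8 of them. The lowest fell on the saccharin 1 h array C380 for 11 members and on the water 1 h array C378 for 8.

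**Figure D1:**
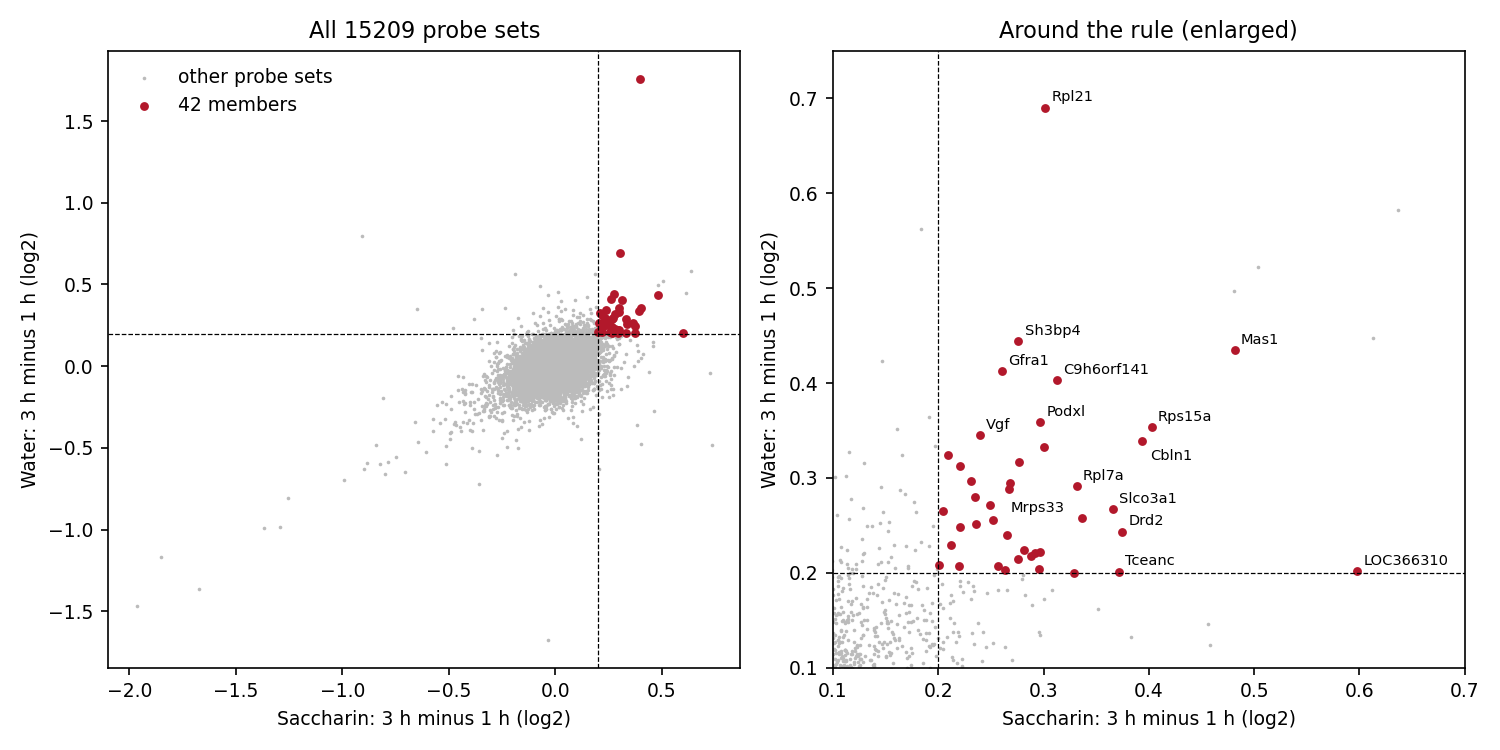
Change from 1 h to 3 h (3 h minus 1 h, log2) after saccharin (horizontal) and after water (vertical) for all 15209 probe sets on the left and enlarged around the rule on the right, with the 42 members in red and dashed lines at 0.2. Most members lie close to both lines, Ldha (1.76 after water) lies far above them in the left panel, and the grey points beyond both lines are the 4 probe sets set aside by symbol.

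The 4 arrays at 3 h lay wholly above the 4 at 1 h for 13 members after saccharin, where the same held for 2.09% of all probe sets tested, and for 14 after water, where it held for 2.43%. Without overlap in either taste were 7 of 42 members: Podxl, Slco3a1, Mrps33, Cdyl2, Hs3st1, Maml3 and Lims2. The same held for 0.276% of all probe sets tested. For 22 members the arrays overlapped in both tastes. In the limma fit over both tastes 13 of 42 members passed a Benjamini-Hochberg adjusted p under 0.05, beside 0.283% of all probe sets called higher at 3 h, and nothing is read from these counts because the rule used the contrast.

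Podxl encodes podocalyxin, a heavily sialylated membrane mucin related to CD34 that lines podocytes and vessels and is also made by neurons. Podxl signals after saccharin were 6.49, 6.55, 6.59 and 6.62 at 3 h and 6.24, 6.24, 6.25 and 6.34 at 1 h. After water they were 6.51, 6.60, 6.62 and 6.70 at 3 h and 6.19, 6.21, 6.28 and 6.32 at 1 h. All 8 arrays at 3 h were above all 8 at 1 h, and the spread within a group was narrow. The means were 6.56 ± 0.05 at 3 h and 6.27 ± 0.05 at 1 h after saccharin, and 6.61 ± 0.08 at 3 h and 6.25 ± 0.06 at 1 h after water (SD, n = 4), so Podxl was higher at 3 h by 0.30 and 0.36 (1.26-fold for the mean of both changes).

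Slco3a1 encodes an organic anion transporting polypeptide of the plasma membrane, a carrier of prostaglandins and thyroid hormone. Its signals after saccharin were 6.86, 6.90, 6.91 and 7.02 at 3 h and 6.47, 6.48, 6.59 and 6.69 at 1 h. Those after water were 6.89, 6.93, 6.99 and 7.06 at 3 h and 6.64, 6.64, 6.70 and 6.83 at 1 h. Again the 8 arrays at 3 h were the 8 highest, and the water 1 h group stood a little above the saccharin 1 h group. Slco3a1 was higher at 3 h by 0.37 after saccharin and by 0.27 after water (1.25-fold for their mean). Podxl and Slco3a1 kept both changes over 0.2 without any single array.

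**Figure D2:**
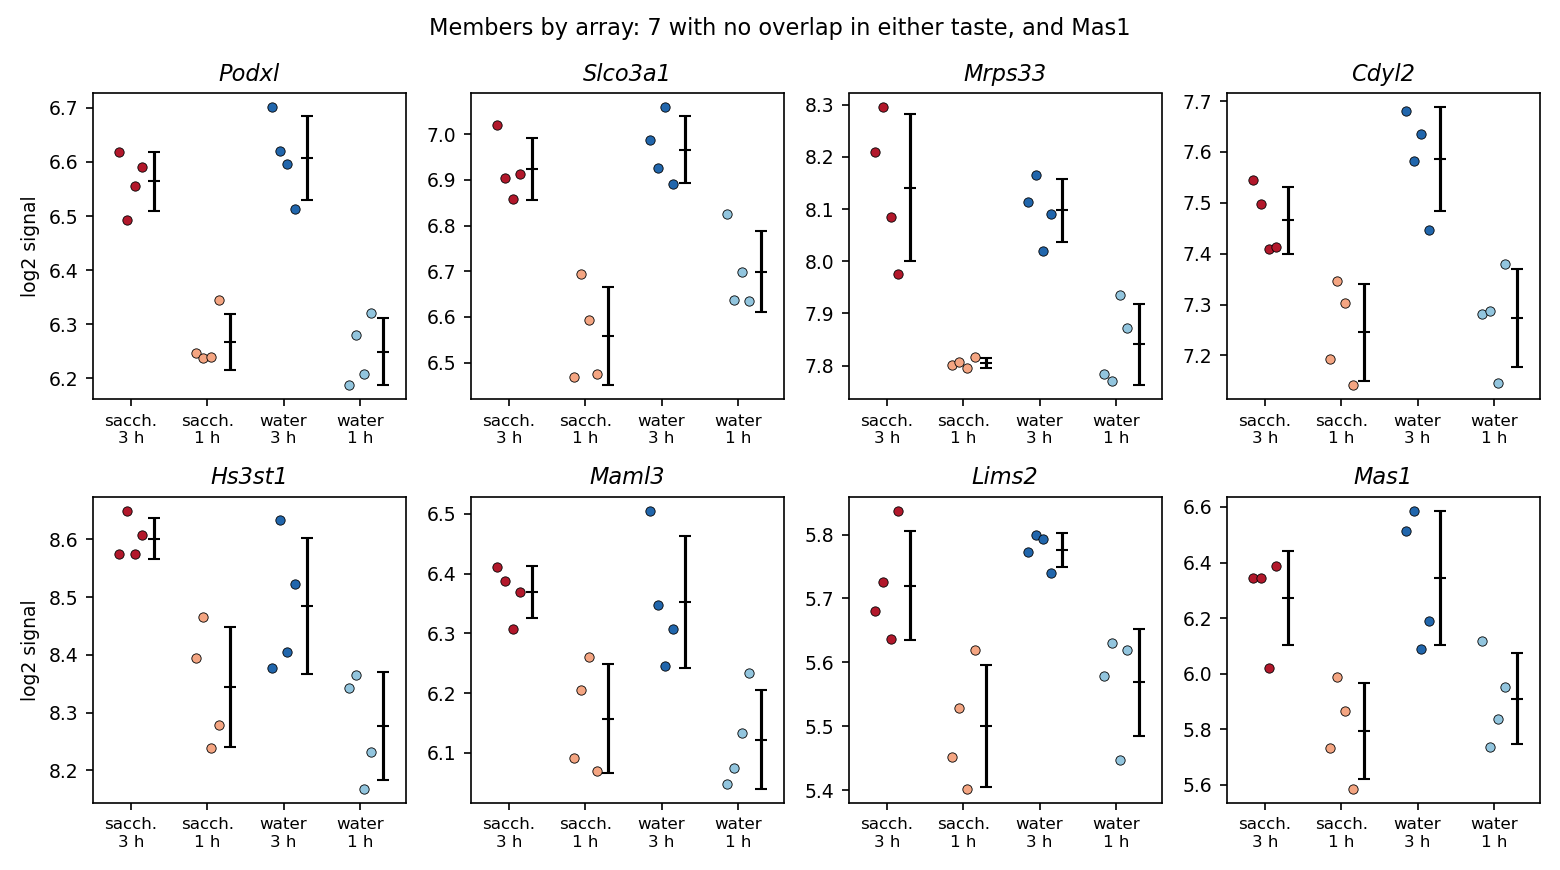
Log2 signal of the 7 members whose arrays at 3 h and 1 h did not overlap in either taste, and of Mas1, in saccharin 3 h, saccharin 1 h, water 3 h and water 1 h (a point is 1 rat, bars are the mean and SD of 4). Podxl at 3 h spans 6.49 to 6.70 and at 1 h 6.19 to 6.34, while Mas1 overlaps after water (6.09 at the lowest 3 h array, 6.12 at the highest 1 h array).

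Sequences upstream of the start are shown for Podxl and Slco3a1, which give the set its clearest change, and for Vgf, a known target of activity-dependent transcription factors. They are the 250 bases before the RefSeq start (GRCr8, minus strand for all 3), at chr4:61149132-61149381 for Podxl, chr1:137797837-137798086 for Slco3a1 and chr12:25277021-25277270 for Vgf, and capitals mark every match to the motifs named next.
Podxl: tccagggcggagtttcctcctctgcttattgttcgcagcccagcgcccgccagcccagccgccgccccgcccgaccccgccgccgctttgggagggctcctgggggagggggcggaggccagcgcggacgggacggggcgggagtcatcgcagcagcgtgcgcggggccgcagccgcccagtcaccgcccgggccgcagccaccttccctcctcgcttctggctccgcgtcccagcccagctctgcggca
Slco3a1: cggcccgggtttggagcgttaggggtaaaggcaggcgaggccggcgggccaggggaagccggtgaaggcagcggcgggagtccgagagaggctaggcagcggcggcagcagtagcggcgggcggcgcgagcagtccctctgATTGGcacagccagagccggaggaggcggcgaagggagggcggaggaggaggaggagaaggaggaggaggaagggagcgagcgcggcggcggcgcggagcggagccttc
Vgf: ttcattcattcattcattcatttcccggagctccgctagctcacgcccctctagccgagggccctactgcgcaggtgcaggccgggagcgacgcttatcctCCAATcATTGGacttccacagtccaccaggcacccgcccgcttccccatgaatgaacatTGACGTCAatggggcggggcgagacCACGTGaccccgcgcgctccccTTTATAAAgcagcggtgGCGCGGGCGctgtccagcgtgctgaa

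Motifs were sought on both strands from 250 bases before to 50 bases after the start, in the 34 of 42 members that the RefSeq promoter table held and in all 27457 promoters of that table. The full cAMP response element (TGACGTCA) was present in 2 of 34 members (5.88%), Ldha and Vgf, and in 1.91% of all promoters. Its shorter part TGACG, which lies within the full element, was in 7 members (20.6%) and in 22.0% of all promoters. The AP-1 motif TGANTCA was found in 5.88% of members and 7.33% of all promoters, the E-box CACGTG in 5.88% and 6.65%, and the EGR motif GCGNGGGCG in 11.8% and 5.29%. The serum response element was in 2 members, Ldha and Tfap2d (5.88% against 1.64%), the TATA box TATAAA in 11.8% against 14.3%, and the CCAAT box CCAAT in 32.4% against 37.7%. The MEF2 motif was in 1 member, Acnat2 (2.94% against 3.37%), and the glucocorticoid response element in none (against 0.00728%). These shares rest on 11 members or fewer each, and a match is a run of letters only. In the Vgf sequence the capitals are, from the left, 2 CCAAT boxes on opposite strands, the cAMP response element, the E-box, TATA boxes on both strands and the EGR motif. Slco3a1 held 1 CCAAT box on the minus strand of the printed run, and Podxl held none of these motifs. The members' promoters had a median of 61.0% G and C, against 52.3% for all promoters. The 27457 promoters outnumber the 14497 genes from which members were chosen, so this background includes genes that could not be members.

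Among the secreted proteins, Vgf, the precursor of several neuropeptides that neurotrophins and activity induce, was bright. After saccharin its signals were 7.996, 8.04, 8.08 and 8.30 at 3 h and 7.65, 7.86, 7.86 and 8.08 at 1 h. After water it gave 8.10, 8.15, 8.18 and 8.21 at 3 h and 7.53, 7.91, 7.91 and 7.92 at 1 h. The groups overlapped after saccharin and not after water, and Vgf was higher at 3 h by 0.24 and 0.34. Cbln1, a cerebellin that bridges presynaptic neurexin and a postsynaptic delta receptor, was higher by 0.39 after saccharin and 0.34 after water. Its arrays overlapped in both tastes, with 5.59 to 6.07 at 3 h and 5.22 to 5.88 at 1 h after saccharin. Lrrc17, a secreted leucine-rich repeat protein, was higher by 0.27 and 0.29.

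Receptors made up 8 members, and 7 of these couple to G proteins or belong to that superfamily. Mas1, a receptor for a shortened angiotensin peptide, had the largest change among them. Its signals after saccharin were 6.02, 6.34, 6.34 and 6.39 at 3 h and 5.58, 5.73, 5.87 and 5.99 at 1 h. After water the Mas1 signals were 6.09, 6.19, 6.51 and 6.58 at 3 h and 5.74, 5.84, 5.95 and 6.12 at 1 h. The groups were apart after saccharin and met at a single pair of arrays after water, and Mas1 was higher at 3 h by 0.48 and 0.43. Mas1 also kept its place in the set without any single array.

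Gfra1, the membrane-anchored co-receptor of the neurotrophic factor GDNF, was higher at 3 h by 0.26 after saccharin and 0.41 after water. The saccharin 3 h arrays read 7.10, 7.30, 7.35 and 7.50, and the saccharin 1 h arrays 6.91, 6.91, 6.92 and 7.46. Water 3 h arrays gave 7.10, 7.58, 7.66 and 7.73, and water 1 h arrays 6.81, 7.09, 7.18 and 7.33. In each taste 1 array lay apart from its group and made the times overlap.

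Ntsr1, a neurotensin receptor that marks layer 6 neurons projecting to thalamus in mouse cortex, spanned 5.07 to 5.48 at 3 h and 4.80 to 5.21 at 1 h after saccharin. After water Ntsr1 read 5.18 to 5.34 at 3 h and 5.003 to 5.094 at 1 h, without overlap. Hcrtr2, a receptor of the arousal peptide orexin, likewise overlapped after saccharin (4.90 to 5.16 at 3 h and 4.58 to 4.93 at 1 h) and not after water (4.92 to 5.11 at 3 h and 4.59 to 4.89 at 1 h). Its changes were 0.24 and 0.25, and those of Ntsr1 were 0.28 and 0.21.

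Oprk1, the kappa opioid receptor that binds dynorphin, read 5.75, 5.98, 6.04 and 6.38 at 3 h and 5.64, 5.65, 5.70 and 6.03 at 1 h after saccharin. Water gave 5.83, 6.24, 6.27 and 6.30 at 3 h and 5.60, 5.92, 6.07 and 6.15 at 1 h for the same receptor. Both tastes overlapped, and the changes of Oprk1 were 0.28 and 0.22. Prokr2, a prokineticin receptor, was higher by 0.21 and 0.32, and 1 water 1 h array at 5.18 lay far under the other 3 (5.78 to 5.99). Drd2, the dopamine receptor of indirect-pathway striatal neurons, was dim, with 4.73 to 5.08 at 3 h and 4.23 to 4.71 at 1 h after saccharin, and 4.65 to 4.97 at 3 h and 4.37 to 4.71 at 1 h after water. It was higher by 0.37 after saccharin, without overlap, and by 0.24 after water, with overlap. Adgre5, the adhesion receptor also called CD97, was higher by 0.23 and 0.30.

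**Figure D3:**
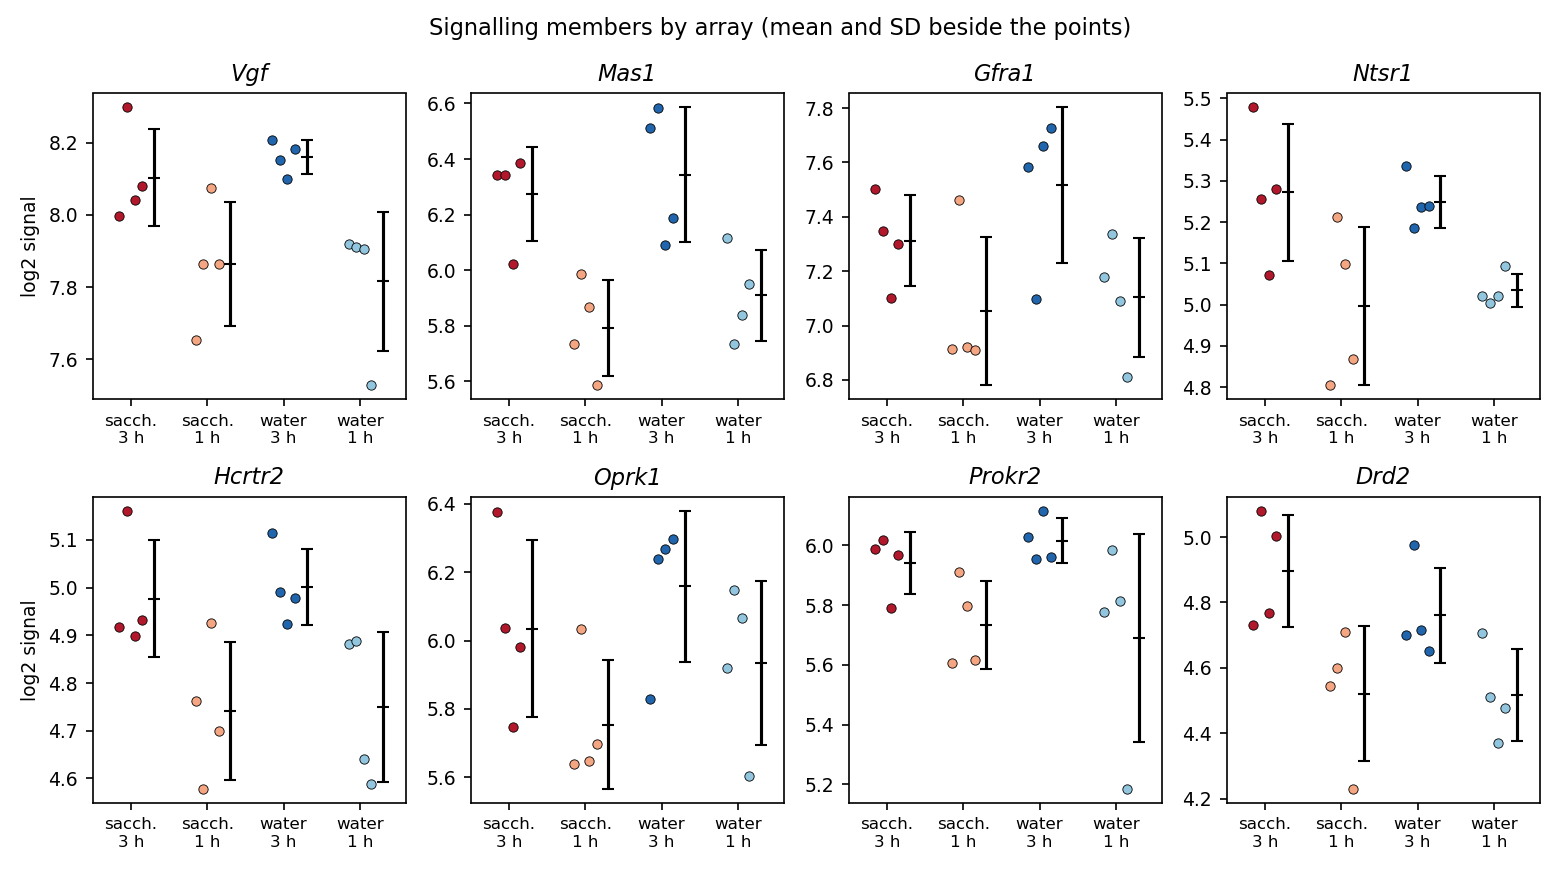
Log2 signal of the secreted factor Vgf and of 7 receptors in saccharin 3 h, saccharin 1 h, water 3 h and water 1 h (a point is 1 rat, bars are the mean and SD of 4). Means at 3 h are above those at 1 h in every panel, as the rule requires, and single arrays stand apart, such as Gfra1 at 7.46 in saccharin 1 h and Prokr2 at 5.18 in water 1 h.

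The other membrane proteins, 8 with Podxl and Slco3a1, changed by 0.20 to 0.37 after saccharin and by 0.20 to 0.36 after water. Sdk2, a sidekick adhesion protein of the immunoglobulin superfamily that matches synaptic partners in mouse retina, read 6.41 to 6.67 at 3 h and 6.04 to 6.47 at 1 h after saccharin. After water Sdk2 was apart, with 6.46 to 6.72 at 3 h and 6.20 to 6.33 at 1 h, and its changes were 0.28 and 0.32. Sorcs3, a sorting receptor of the Vps10p family found at synapses, changed by 0.20 and 0.27. Serinc2, a membrane protein of the serine incorporator family, changed by 0.25 and 0.27, Tmem114, a claudin-like protein, by 0.29 and 0.22, and Tm4sf19, a tetraspan protein, by 0.26 and 0.20. Clec2d2l2, a C-type lectin gene, averaged only 3.52 and changed by 0.23 and 0.28.

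Among adaptors and binding proteins, Lims2, a LIM-domain adaptor of integrin adhesions, had changes of 0.22 and 0.21. Its arrays read 5.64, 5.68, 5.73 and 5.84 in saccharin 3 h and 5.40, 5.45, 5.53 and 5.62 in saccharin 1 h. Water 3 h gave 5.74, 5.77, 5.79 and 5.80, and water 1 h 5.45, 5.58, 5.62 and 5.63. Small as these changes were, the 8 arrays at 3 h were again the 8 highest. Crym, the thyroid hormone binding protein mu-crystallin, was the brightest of this group at 9.08 and was higher by 0.30 and 0.20, with overlap in both tastes. S100a16, an EF-hand calcium binding protein, was higher by 0.27 and 0.24, and Sh3bp4, an adaptor of receptor endocytosis, by 0.28 and 0.44.

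The nuclear proteins formed the largest role group, with 9 members. Cdyl2 is a chromodomain protein that reads methylated histones. It read 7.41, 7.41, 7.50 and 7.54 in saccharin 3 h and 7.14, 7.19, 7.30 and 7.35 in saccharin 1 h. In water 3 h it read 7.45, 7.58, 7.64 and 7.68 and in water 1 h 7.14, 7.28, 7.29 and 7.38. Neither taste overlapped, and the changes of Cdyl2 were 0.22 and 0.31. Maml3, a Mastermind coactivator of Notch signalling, spanned 6.31 to 6.41 at 3 h and 6.07 to 6.26 at 1 h after saccharin, and 6.25 to 6.50 at 3 h and 6.05 to 6.23 at 1 h after water. Its changes were 0.21 and 0.23.

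Ino80e, a subunit of the INO80 chromatin remodeller, had changes of 0.30 and 0.33 but a wide spread, with saccharin arrays from 7.67 to 8.53 at 3 h and from 7.48 to 8.22 at 1 h. Ppp1r10, a nuclear targeting subunit of protein phosphatase 1, was tight at 7.35 to 7.43 in saccharin 3 h and 6.96 to 7.18 in saccharin 1 h, and changed by 0.30 and 0.22. Tfap2d, a transcription factor of the AP-2 family, changed by 0.33 and 0.20, and Ldb2, a cofactor of LIM-homeodomain factors, by 0.20 and 0.21. Exo5, a DNA exonuclease, changed by 0.27 and 0.29, Zfp867, a zinc finger gene, by 0.22 and 0.25, and Tceanc, a gene with a transcription elongation factor domain, by 0.37 and 0.20 at a mean level of 3.38.

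Of the enzymes, Hs3st1, a heparan sulfate sulfotransferase that makes the antithrombin-binding motif, was bright and read 8.57, 8.57, 8.61 and 8.65 in saccharin 3 h and 8.24, 8.28, 8.39 and 8.46 in saccharin 1 h. Its water arrays read 8.38, 8.40, 8.52 and 8.63 at 3 h and 8.17, 8.23, 8.34 and 8.37 at 1 h. The water groups were apart by a narrow gap, and Hs3st1 was higher by 0.26 and 0.21. Nat8b, an acetyltransferase gene, changed by 0.25 and 0.26, and Acnat2, an acyltransferase gene, by 0.29 and 0.22 at a level of 4.31.

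Ldha, the lactate dehydrogenase A subunit, carried the largest change of all members after water, 1.76, with 0.40 after saccharin. On 3 arrays it read far below the other 13. Left out singly, C366, C370, C372 and C375 each removed Ldha from the set, while the low arrays C368 and C373 did not. Its member probe set read 5.43 on 1 saccharin 3 h array, 5.09 on 1 saccharin 1 h array and 5.29 on 1 water 1 h array, against 10.27 to 11.26 on the other 13. A second probe set paired with Ldha read 9.84 to 10.15 on all 16 arrays and changed by -0.08 after saccharin and -0.07 after water. The low readings were thus not shared by the other probe set of the same gene.

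Ribosomal proteins gave 4 members. Mrps33, of the small mitochondrial ribosomal subunit, read 7.98, 8.08, 8.21 and 8.29 in saccharin 3 h and 7.80, 7.80, 7.81 and 7.82 in saccharin 1 h. After water it read 8.02, 8.09, 8.11 and 8.17 at 3 h and 7.77, 7.78, 7.87 and 7.94 at 1 h. The 8 arrays at 3 h were the 8 highest, and Mrps33 was higher by 0.34 and 0.26. The cytosolic ribosomal proteins Rpl21, Rps15a and Rpl7a were dim here, at mean levels of 3.97, 4.06 and 4.75, and their arrays overlapped in both tastes. The other 2 members were C9h6orf141, an open reading frame of unknown role, at a level of 3.46, and LOC366310, a pseudogene by RefSeq, at 4.10.

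For 8 members the array holds 36 further probe sets paired with the same gene, and none of these met the rule. Of the 36, 5 were higher at 3 h in both tastes, 2 each of Rpl21 and Rpl7a and 1 of Rps15a. Rpl21 had 18 of them, at levels up to 11.40, and they changed by -0.31 to 0.37 (saccharin) and by -0.37 to 0.23 (water). The brighter of the 2 Sh3bp4 probe sets, at 6.63, changed by -0.13 and -0.02. Near-identical copies of ribosomal protein genes can share probes, so the genes behind Rpl21, Rps15a and Rpl7a signals are uncertain. The remaining 34 members have a single probe set each.

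**Figure D4:**
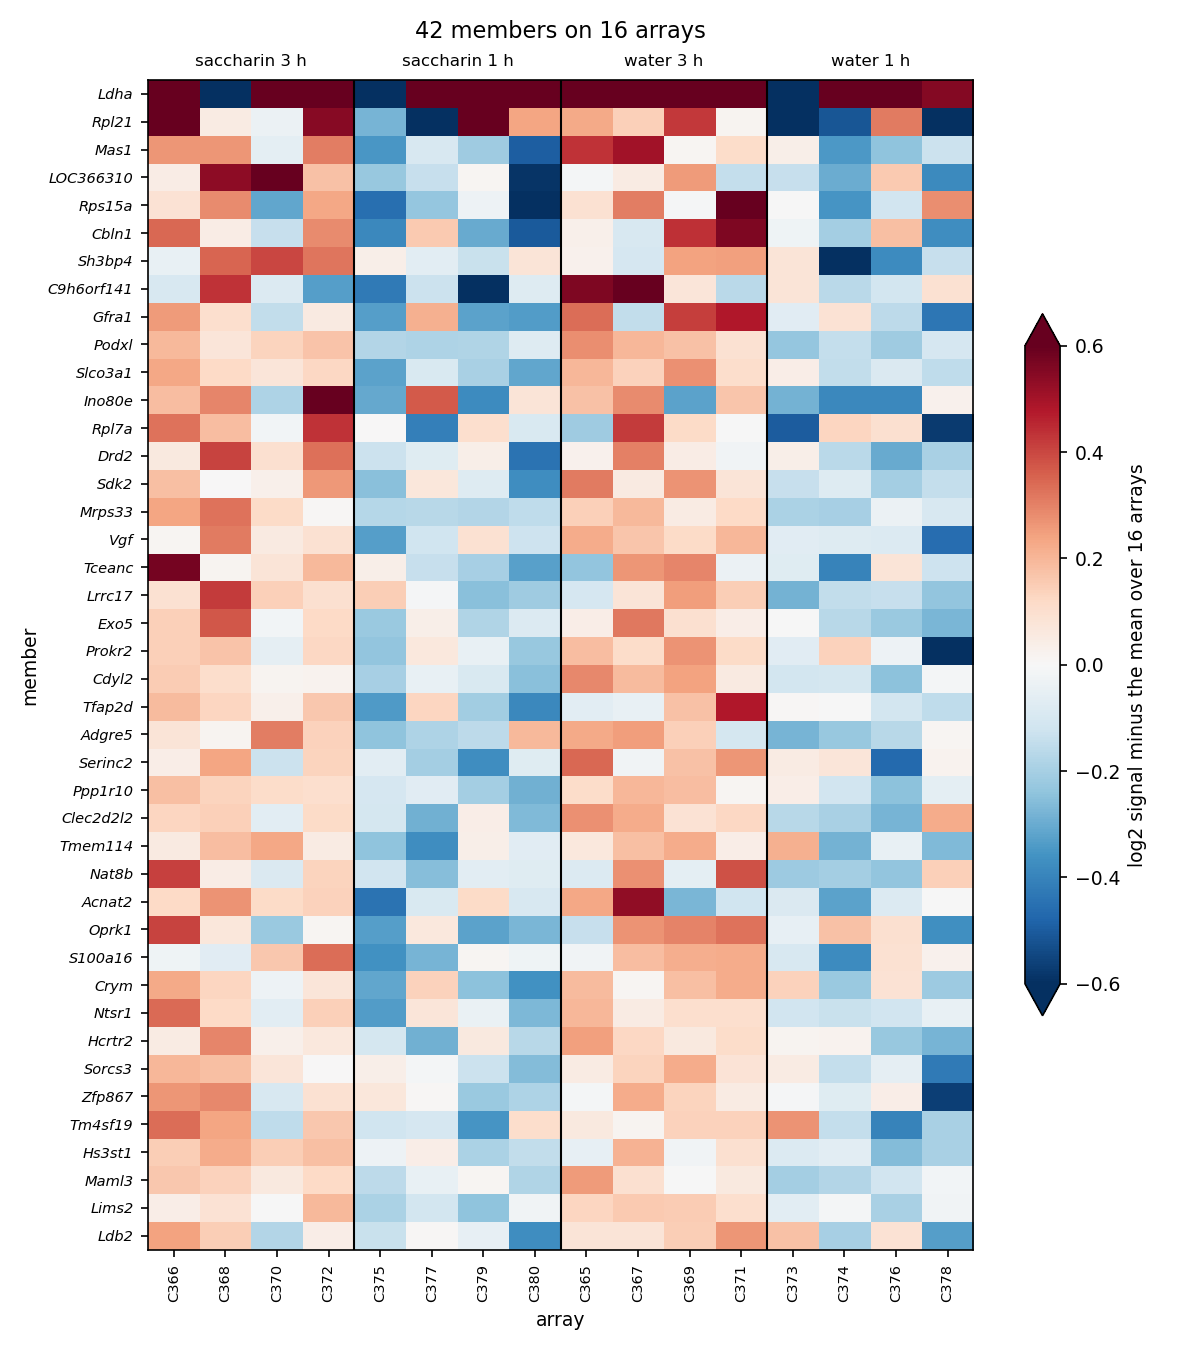
Log2 signal of each of the 42 members minus its mean over 16 arrays (colour, cut at -0.6 and 0.6), with arrays in columns by group and members in rows from the largest to the smallest mean change. Ldha shows 3 dark blue cells, at 5.43, 5.09 and 5.29, and most other rows change by under 0.5 between the times.

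At the edge of the rule, the members nearest to 0.2 in their smaller change were Tfap2d (0.20), Ldb2 (0.20), Tceanc (0.20), LOC366310 (0.20) and Tm4sf19 (0.20). Just outside were Camk1g with 0.197 after saccharin and 0.334 after water, Lcn1 with 0.196 and 0.198, Pfdn2 with 0.195 and 0.249, Sulf1 with 0.280 and 0.194, and Rxrg with 0.192 and 0.228. No gap in the values separated members from non-members.

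The comparison of tastes, which asks whether an unfamiliar sweet fluid and familiar water left different levels of these transcripts, was not used to choose the members when averaged over both times. No member passed the limma test at an adjusted p under 0.05 over both times, at 3 h or at 1 h, and neither did any of the 15209 probe sets (0.0% in each comparison). At an unadjusted p under 0.05 there were 3 of 42 members over both times (7.14%, against 3.39% of all probe sets), 1 at 3 h (2.38% against 3.37%) and 1 at 1 h (2.38% against 3.06%). The fit recovered 97 of 100 simulated differences of 0.5 and 100 of 100 of size 1 over both times, with 12 false calls among the unchanged probe sets. The simulated noise was independent between probe sets. Smaller differences and single times were not simulated. Apart from Ldha, the members' differences over both times ran from -0.351 to 0.285, so recovery at their sizes is not known. The 95% interval of the taste difference extended by a median of 0.16 to either side over both times and 0.23 at a single time, and for 31 of 42 members it lay within 0.3 of zero over both times, so a larger difference by taste was outside the interval for those members only.

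C9h6orf141 had the smallest p over both times, with 3.28 ± 0.33 after saccharin and 3.64 ± 0.42 after water (SD, n = 8 each), a difference of -0.35 (limma, unadjusted p = 0.0276, adjusted p = 1.00). Sh3bp4 followed with 6.31 ± 0.21 after saccharin and 6.08 ± 0.38 after water, a difference of 0.24 (limma, unadjusted p = 0.044, adjusted p = 1.00), which was 0.14 without the water 1 h array C374. Slco3a1 was lower after saccharin by a difference of -0.09, with an interval from -0.18 to -0.0011 (limma, unadjusted p = 0.0477, adjusted p = 1.00). Next by p came Rps15a (-0.26), Hs3st1 (0.09) and Cdyl2 (-0.07). For Podxl the taste difference was -0.01, with an interval from -0.09 to 0.06. The smallest p at 3 h was that of LOC366310, which differed by 0.33 (limma, unadjusted p = 0.0400), and at 1 h that of Slco3a1, which differed by -0.14 (limma, unadjusted p = 0.0329). Over both times 17 members were higher and 25 lower after saccharin, with a median difference of -0.01, against 0.00 over all probe sets.

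In the podocalyxin and CD34 family with its membrane anchors, 11 genes were measured, Podxl alone was called higher at 3 h over both tastes and none lower, and the median change was 0.02. Cd34 changed by -0.02 and Podxl2 by 0.02, and the largest change after Podxl was that of the scaffold Nherf2, 0.16 (limma, adjusted p = 0.175). Among 12 organic anion transporters of the Slco family only Slco3a1 was called, and the bright vascular carriers Slco1c1 and Slco1a4 changed by -0.03 and -0.12. In the renin-angiotensin system, 10 genes were measured, Mas1 alone was called, and the median was -0.01. The called genes in these 3 lists are members, whose calls the rule favours. Among family lists that hold no member, Camk1g was called higher among 17 calcium and calmodulin dependent kinases (0.27, limma, adjusted p = 0.0193). The survival gene Mcl1 was called lower among 16 genes of the Bcl2 family (-0.30, limma, adjusted p = 0.0193), and the receptor kinase antagonist Spry2 lower among 9 genes with the Ubash3 and Cbl regulators (-0.22, limma, adjusted p = 0.0217). None was called by limma among 18 sialyltransferases or 8 inositol phosphate kinases, which held 5 and 3 genes at an unadjusted p under 0.05. At that unadjusted threshold 5.77% of all probe sets were higher at 3 h and 6.25% lower.

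Of 24 genes known to respond late to neuronal activity, 3 were called higher at 3 h and none lower. These were Vgf and the genes set aside by symbol, Inhba (0.61), an activin subunit, and Kcnj2 (0.53), an inward rectifier channel. All 3 met the threshold of 0.2 in both tastes, which favours their calls, and no other gene of the list was called. In all 15 of the 24 were higher and 9 lower, and 7 of the higher and 5 of the lower were at an unadjusted p under 0.05. Without a call, Bdnf changed by 0.18 and Nptx2 by 0.16 (limma, adjusted p = 0.19 and 0.109), and Gpr3 by -0.29, Tent5a by -0.20 and Rheb by -0.15 (limma, adjusted p = 0.0689, 0.307 and 0.122). The list's median was 0.04, against 0.00 for all probe sets. The following lists were written after the members had been seen. Members in them are higher at 3 h by the rule, which favours their calls and adds to the counts of higher genes. Over all probe sets tested, 7606 were higher at 3 h and 7603 lower. Among 63 neuropeptide receptors, which include Mas1, Ntsr1, Hcrtr2, Oprk1 and Prokr2, 41 were higher at 3 h and 22 lower with a median of 0.02, 1 was called higher (Mas1) and 1 lower (Vipr1, -0.14, limma, adjusted p = 0.0453). Hcrtr1, the other orexin receptor, changed by 0.22 (limma, adjusted p = 0.155), and Ntsr2 by 0.09.

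Among 18 genes of the Notch pathway, Maml3 was the only one called higher, and 15 were lower at 3 h with a median of -0.04. Hes1, a repressor that Notch induces, was lower by a difference of -0.65 (limma, adjusted p = 8.12e-05), the ligand Dll1 by -0.24 (limma, adjusted p = 0.0408) and the receptor Notch1 by -0.18 (limma, adjusted p = 0.0459). Of 8 heparan sulfate sulfotransferases, Hs3st1 was called higher and Hs3st5 lower (-0.23, limma, adjusted p = 0.011). None was called by limma among 10 genes of GDNF signalling, where Gfra2 changed by 0.14 beside Gfra1 (0.34), among 7 cerebellins and their partners, 5 dopamine receptors, 3 Vps10p receptors or 17 glycolytic enzymes. At an unadjusted p under 0.05 these lists held 2, 1, 1, 2 and 2 genes. In the 15 genes of layers 5 and 6, 12 were higher at 3 h, with a median of 0.04. These 12 include the members Ntsr1, Crym and Ldb2, which the rule fixed as higher. None of the 15 was called by limma (6 at an unadjusted p under 0.05, 5 of them higher). Among 13 genes of layers 2 to 4, 2 were higher and 11 lower, with a median of -0.08 and no call (2 at an unadjusted p under 0.05).

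Markers of cell types that the dissection could hold were followed over the same contrast. All 12 measured markers of leptomeninges and fibroblasts were lower at 3 h, with a median of -0.29 and no call by limma (10 of 12 at an unadjusted p under 0.05). Their mean level was 5.81 to 6.51 in saccharin 3 h and 6.39 to 6.66 in saccharin 1 h, and 6.06 to 6.47 in water 3 h and 6.33 to 6.67 in water 1 h. Both blood markers, Hbb and Alas2, were lower as well (median -0.27, no call, Hbb at an unadjusted p under 0.05). Of 9 striatal markers, Drd2 among them, 5 were higher with a median of 0.08. All 4 claustrum markers were higher with a median of 0.19, namely Nr4a2 (0.26), Oprk1 (0.25), Gnb4 (0.13) and Synpr (0.02). Drd2 and Oprk1 are members, which the rule fixed as higher, so each adds to the count and raises the median of its list. No striatal or claustrum marker was called by limma. Glutamatergic neuron markers averaged 10.61 to 10.64 in saccharin 3 h and 10.57 to 10.60 in saccharin 1 h. After water they averaged 10.61 to 10.69 at 3 h and 10.52 to 10.60 at 1 h. All 4 of these markers were higher at 3 h, without a call by limma (1 at an unadjusted p under 0.05). The medians of glutamatergic, GABAergic, astrocyte, oligodendrocyte, microglia, endothelial and mural markers lay between -0.02 and 0.04. Oligodendrocyte precursors had a median of -0.04 and choroid plexus -0.06. Array medians lay between 5.08 and 5.16. The part of these shifts in the members' changes was not tested.

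Deviations of single arrays from their group means, which the rule did not use, were correlated between members over the 16 arrays (12 degrees of freedom after the 4 means are removed). Members shared arrays, dissections and hybridisations, and the correlations are a description. Over 861 pairs the mean r was 0.07, against 0.01 over all probe sets, so the set did not vary as 1 unit. Over 0.6 were 43 pairs (4.99%, against 2.36% of all pairs of probe sets), and under -0.6 were 9 (1.05%, against 1.95%). A block of 9 members, chosen after the values were seen, varied together: Sorcs3, Zfp867, Slco3a1, Ldb2, Crym, Oprk1, Gfra1, Cbln1 and Tfap2d, with r from 0.20 to 0.85 over its 36 pairs. Prokr2, not counted in the block, was also positive with all 9 (r from 0.40 to 0.70). The highest values were 0.85 for Sorcs3 with Zfp867, 0.83 for Ldb2 with Crym and 0.82 for Cbln1 with Tfap2d. Podxl and Adgre5 went together (r = 0.72) and ran against the block, with r from -0.63 to -0.14 for Podxl and from -0.78 to -0.28 for Adgre5.

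The same deviations were set against the mean of the claustrum markers without Oprk1 (Nr4a2, Gnb4 and Synpr). The r was 0.92 for Gfra1, 0.82 for Cbln1, 0.78 for Tfap2d, 0.75 for Crym and 0.72 for Oprk1, and -0.20 for Podxl and -0.46 for Adgre5. Among the markers in this mean, Nr4a2 had the largest change over both tastes, 0.26 with a standard error of 0.118. Gnb4 changed by 0.13 (standard error 0.073) and Synpr by 0.02 (0.057). Whether Nr4a2 followed claustrum content or neuronal activity was not tested, and no r without Nr4a2 is given. Of 42 members, 9 lay over 0.5 with the claustrum markers, against 5.43% of all probe sets outside that list. The counts were 9 with the striatal markers without Drd2 (against 7.62%) and 6 with the genes of layers 5 and 6 (against 5.64%). They were 7 with the glycolytic enzymes (against 11.8%) and 6 with the late activity genes (against 12.3%). Under -0.5 were Clec2d2l2 with the claustrum (-0.53) and striatal markers (-0.64), Adgre5 with the striatal markers (-0.55) and the late activity genes (-0.60), S100a16 with the late activity genes (-0.60) and Sh3bp4 with the genes of layers 5 and 6 (-0.65). The shares of all probe sets under -0.5 were 3.66% (claustrum), 5.62% (striatal), 8.05% (late activity) and 4.39% (layers 5 and 6). With the blood markers 7 of 42 members lay under -0.5 (against 4.30% of all probe sets), Cbln1 at -0.69. With the leptomeningeal markers 1 member lay over 0.5 (Mrps33, 0.74) and 1 under -0.5 (Sdk2, -0.60), against 6.73% and 3.32% of all probe sets. The r with these markers was -0.40 for Podxl and -0.25 for Slco3a1. Whether the cell makeup of each dissection entered these patterns was not tested.

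**Figure D5:**
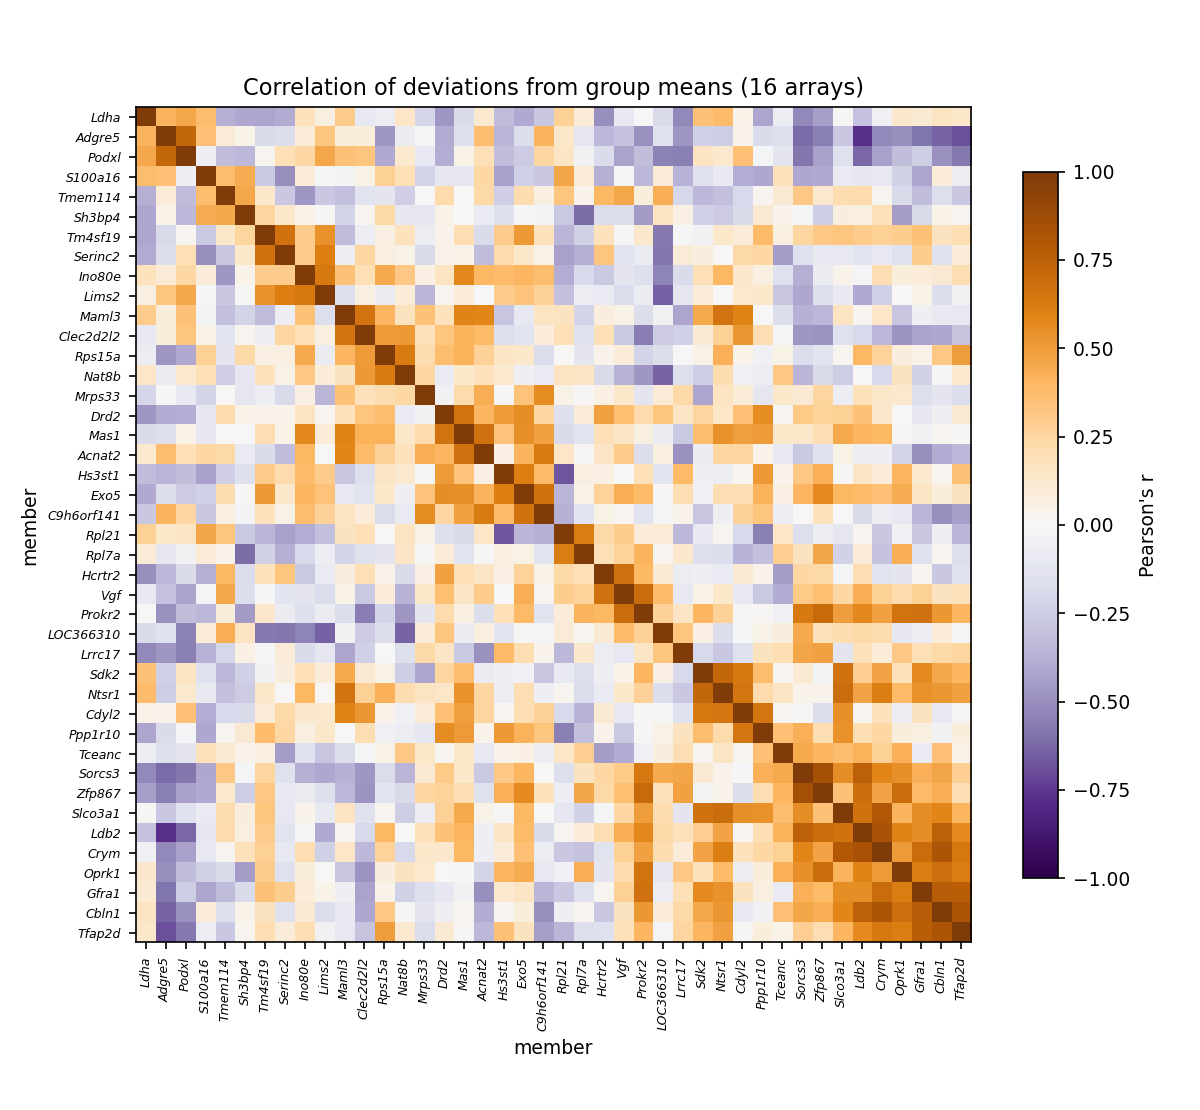
Pearson correlation of deviations from group means between the 42 members over 16 arrays (colour from -1 to 1, members ordered by average-linkage clustering of the correlations). The block of 9 members at the lower right is positive throughout (0.20 to 0.85), and Podxl and Adgre5 at the upper left are negative against it.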

How the data were processed

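Messenger RNA was measured on 16 one-colour arrays, 4 per group, each from 1 rat as the methods state. The deposited log2 values were made by the authors with the package affy (version not given in the sources used here), by quantile normalization of probe signals across all chips and RMA summary per probe set. They were used as deposited. Of 28826 probe sets, the array annotation pairs 15209 with 1 gene and 306 with several, while 13311 have no entry in it and stay unnamed. No genome coordinates are given for probe sets.

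limma 3.58.1 (R 4.3.3) estimated the 4 group means with a common variance per probe set over all 16 arrays, and used two-sided tests and Benjamini-Hochberg adjustment over all 15209 probe sets, and a call is an adjusted p under 0.05. The fit was tested on simulated data. Other values were computed with Python 3.11.15 and pandas 2.3.3. For gene lists the brightest probe set of a gene was used, and 1 list is not reported here. Precision is limited by the number of arrays.

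The members, lists and tests were chosen with earlier results of these data known. Genes were named by a rule: Podxl and Slco3a1, members without overlap in both tastes at a mean of 5 or more, those nearest to the threshold, those with the smallest p by taste, those with several probe sets, genes of the lists, and other members inside their role group. The block of correlated members and the roles were set after the values were seen. Alternatives were other thresholds, scalings, filters, priors, array weights and leaving out each array.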

Additional observations from a re-analysis of the deposited data

Results flagged for a closer look

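Within each group of 4 arrays, an array was picked out where its gap to the nearest other array was larger, relative to the group's range, than Dixon's 95% critical value. Of 168 groups (42 members in 4 groups), 16 met this, where chance gives about 8.4 (1 in 20). The gap was widest for Ldha, where single arrays read 5.43 in saccharin 3 h, 5.09 in saccharin 1 h and 5.29 in water 1 h.

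In saccharin 3 h, array C370 was lowest for Mas1 (6.02) and Clec2d2l2 (3.46), and array C368 was highest for Lrrc17 (5.56), Acnat2 (4.58) and Hcrtr2 (5.16). In saccharin 1 h, array C377 was highest for Gfra1 (7.46) and Oprk1 (6.03), and C380 was highest for Podxl (6.34). In water 3 h, C365 was lowest for S100a16 (6.95) and Oprk1 (5.83). In water 1 h, C378 was lowest for Vgf (7.53) and highest for Nat8b (5.10), and C376 was lowest for Serinc2 (6.499).

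Podxl stayed without overlap in spite of its high array, whose 6.34 was below the lowest array at 3 h (6.49). Without array C378 Vgf stayed a member, and without C368 or C375 it did not.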

How the results depend on the processing

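The number of members depended on the threshold, with 108 at 0.15, 17 at 0.25 and 7 at 0.3. Leaving out each array and choosing again gave 34 to 54 members, and 7 of the 42 were kept each time: Cbln1, Mas1, Mrps33, Podxl, Sdk2, Sh3bp4 and Slco3a1. At least 5 single arrays removed each of 7 others, among them Oprk1, Crym and Ldb2. Centring kept 42 of the 42, repeated quantile normalization 39, group medians 29, and 35 are the brightest probe set of their gene. Members called by time, 13 in the fit reported, ranged from 7 to 19 without single arrays (7 without C376, 8 without C367). The 3 counts of members called by taste were 0 under all alternatives run. List medians kept their signs under centring and repeated quantile normalization, except the mural markers, whose median was -0.002, 0.002 and 0.000. No paired analysis was possible because the groups share no replicate numbers. Limits are 4 arrays per group, 11 dim members, and changes mostly under 0.5.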
